A study of Mus musculus with 3 samples.

Results

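Interferon-stimulated genes are the genes that cells switch on when an interferon reaches them, and 40 of them were followed across ADM, duct and acinar cells of the inflamed mouse pancreas. The members were taken as a named list, and their probes were found through the RefSeq accession that the scanner tables give for each probe. Of the 40 genes, 38 had a matched probe (49 probes in all, among 55664 probes and 21150 named genes on the array), and Mx1 and Mx2 were not matched. The members comprised 34 genes that are counted here as type I interferon targets, 32 of them matched. These include Irf1, through which interferon-gamma also acts. The other 6 are GTPases that are best known as targets of interferon-gamma (Gbp2, Gbp3, Gbp7, Igtp, Irgm1 and Irgm2, all matched).

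The study set acinar cells, duct cells and cells of acinar-to-ductal metaplasia (ADM, the conversion in which enzyme-secreting acinar cells take on duct-like features) beside each other. All 3 groups came from wild-type mice 48 h after pancreatitis brought on by caerulein, a secretagogue that overstimulates acinar cells, and there was no group without pancreatitis. Laser microdissection isolated the cells from frozen pancreas of 3 mice, and the sources used here do not say whether each array carries RNA of 1 animal or of several. Each group had 1 array, so no difference has a replicate check and no test between groups was possible. That small number of arrays sets the precision of all values given here.

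Type I interferons, the interferon-alpha family and interferon-beta, bind the Ifnar1 and Ifnar2 receptor chains, and the kinases Jak1 and Tyk2 then activate a complex that contains Stat2 and Irf9. That complex binds a promoter element called the interferon-stimulated response element (ISRE). Interferon-gamma binds Ifngr1 and Ifngr2 and acts through factors that bind a gamma-activated site (GAS), and through Irf1, a factor that is itself induced and that binds ISRE-type sequences. The targets include sensors of foreign nucleic acid, enzymes and binding proteins that block viral replication, and large GTPases that attack the vacuoles of intracellular microbes, and many targets answer to both kinds of interferon.

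The promoters of the GTPases are shown first, because the GTPases divided into genes with and without a difference between duct and acinar cells. The sequences are from RefSeq (build GRCm38.p6), which had a promoter entry for 32 of the 40 members, and the 250 bases before each start site were searched on both strands for the ISRE core GAAANNGAAA and for the GAS letters TTCNNNGAA. Capitals mark the matches, which in some promoters overlap each other.
Irgm2: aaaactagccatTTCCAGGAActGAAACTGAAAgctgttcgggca
Igtp: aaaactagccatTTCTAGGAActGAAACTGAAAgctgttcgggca
Gbp7: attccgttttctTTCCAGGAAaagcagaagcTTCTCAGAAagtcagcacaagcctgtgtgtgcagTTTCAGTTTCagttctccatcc
Gbp2: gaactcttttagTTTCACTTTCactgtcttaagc
Gbp3: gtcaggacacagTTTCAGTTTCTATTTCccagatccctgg
Irgm1: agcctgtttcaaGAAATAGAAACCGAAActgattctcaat
The stretch of Irgm2 lies at chr11:58214890-58214934 on the plus strand and that of Igtp at chr11:58199499-58199543, also on the plus strand. These are neighbouring genes of the immunity-related GTPase family, and the 45 bases shown are the same in both at 44 positions. The single difference is T16C, with Igtp named first and positions counted from the 5′ end of the stretch. It falls within the GAS match and leaves that match in place. The Gbp7 stretch is at chr3:142530218-142530304, that of Gbp2 at chr3:142620592-142620625 and that of Gbp3 at chr3:142559987-142560026, all on the plus strand. The Irgm1 stretch is at chr11:48871423-48871462 on the minus strand.

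All 6 GTPases had an ISRE core before at least 1 start site, against 3.46% of the 27025 genes with an entry. Of the 6, 3 (Gbp7, Igtp and Irgm2) also had a GAS match, against 8.13% of those genes. A second start site of Gbp3 had neither match, so 6 of the 7 GTPase windows held an ISRE core. Of the 26 type I members with an entry, 9 had an ISRE core and 6 a GAS match. A match of letters is a description of the sequence, not evidence of binding. From the type I members, Isg15, Ifit1, Ifit3 and Oas3 are shown as effectors with an ISRE core. Irf1 is shown for its GAS match with no ISRE core, and a second start site of Irf1 had neither match.
Isg15: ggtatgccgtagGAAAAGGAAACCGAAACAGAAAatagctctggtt
Ifit1: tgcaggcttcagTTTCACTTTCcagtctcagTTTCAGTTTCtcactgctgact
Ifit3: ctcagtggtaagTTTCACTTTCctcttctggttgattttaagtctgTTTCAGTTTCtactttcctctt
Oas3: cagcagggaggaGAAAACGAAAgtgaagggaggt
Irf1: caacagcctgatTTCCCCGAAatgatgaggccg
The stretches of Isg15 (chr4:156200863-156200908) and Oas3 (chr5:120777713-120777746) are on the minus strand. Those of Ifit1 (chr19:34640773-34640825), Ifit3 (chr19:34583361-34583428) and Irf1 (chr11:53769912-53769944) are on the plus strand. In Isg15 the 3 ISRE cores overlap in 1 run, whereas Ifit1 and Ifit3 each have 2 separate cores.

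Levels below are log2 processed signal minus the 75th percentile of the array, so that 0 is the 75th percentile. They compare 1 probe between arrays, and the level of a probe is not set against that of another. Marker lists are also given as summed linear levels, in which the brightest probes weigh most. A gene is counted as higher or lower where 2 arrays differ by at least 2-fold, which is 1 log2 unit. Where a probe was not well above background on 1 array of a pair, the difference is a lower bound for that signal and is written as "at least". Another background correction, normexp, was run with an offset of 50 added to every signal. The 75th percentile of processed signal was 35.2 in acinar, so that offset by itself makes differences of dim probes smaller, bounds included. A call that ends under normexp is therefore not an independent check of the data. Of the 77 member differences of at least 2-fold over the 3 comparisons, 20 fell short of 2-fold under normexp. A fold smaller by over 1.5 times was seen for 43, and a fold larger by as much for 0. The calls that normexp ended and its values for the largest differences are given beside the genes. In tissue pieces, fewer responding cells and less RNA per cell cannot be told apart.

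More interferon-stimulated genes were highest in duct cells than in either other cell type. Against acinar cells, 21 of 38 members exceeded 2-fold in favour of duct and 2 in favour of acinar, with a median difference of 1.44 log2 units. Over all 13826 genes compared, 27.4% were higher in duct and 24.6% higher in acinar, with a median of 0. With the arrays scaled to their medians instead, which moved the median of all genes by 0.28, the share of 2-fold genes that were higher in duct was 64.7% rather than 52.7%. Duct stood at least 2-fold above both other arrays for 16 members, ADM for 4 and acinar for 2, and no array did so for the other 16. The same was true of 15.0%, 8.02% and 12.5% of all 14785 genes that were well above background on 1 or more arrays.

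**Figure D1:**
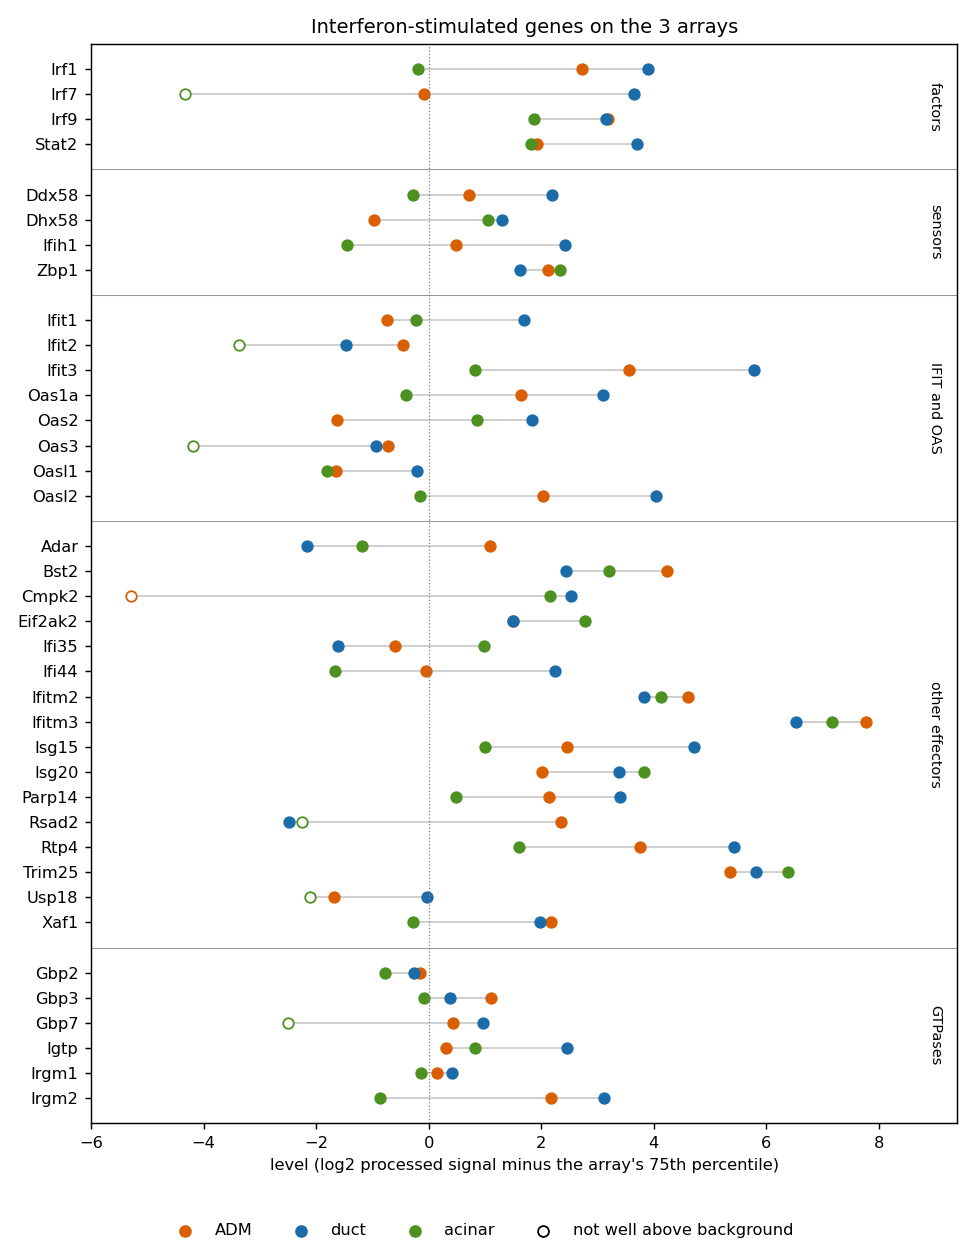
Level of each of the 38 matched members on the ADM, duct and acinar arrays, in log2 units relative to the 75th percentile of the array, grouped by role, with 1 array per group and open points where the probe was not well above background. The duct points of Irf7, Ifit3, Oasl2, Rtp4 and Isg15 lie to the right of the other arrays, and those of Ifi35, Bst2 and Ifitm3 to the left.

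The transcription factors that carry the response were all higher in duct than in acinar cells. Irf7, the factor that amplifies production of type I interferon, was at −0.08 in ADM, 3.65 in duct and −4.33 in acinar, where it was not well above background. Duct therefore exceeded acinar by at least 51.9-fold and ADM by 13.3-fold, and ADM exceeded acinar by at least 3.91-fold. Irf1 was at 2.73 in ADM, 3.90 in duct and −0.19 in acinar, which put duct 16.9-fold and ADM 7.57-fold above acinar cells. Both inducible factors therefore had the order duct, ADM, acinar. Under normexp duct exceeded acinar by 13.4-fold for Irf7 and by 10.02-fold for Irf1, and the Irf7 difference between ADM and acinar was below 2-fold (0.67). Stat2 and Irf9, which belong to the response complex itself, differed less. Stat2 was at 1.92 in ADM, 3.71 in duct and 1.82 in acinar, so duct was 3.69-fold above acinar and ADM lay within 2-fold of acinar (0.10). Irf9 was at 3.19 in ADM, 3.16 in duct and 1.88 in acinar, so ADM and duct were alike (0.03 apart) and about equally above acinar (1.31 and 1.28).

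Among the sensors of foreign nucleic acid, Ifih1 (MDA5, which binds long double-stranded RNA) had the largest difference. It was at 0.49 in ADM, 2.43 in duct and −1.44 in acinar, 14.6-fold higher in duct than in acinar, and its second probe had a difference of at least 4.90 in the same direction. Under normexp Ifih1 was 4.88-fold higher in duct, and ADM was within 2-fold of acinar. Dhx58 (LGP2, a helicase that modulates Ifih1) was at −0.97 in ADM, 1.31 in duct and 1.06 in acinar. For Dhx58 it was the ADM array that stood apart, 4.86-fold below duct and 4.09-fold below acinar (−0.92 against acinar under normexp, short of 2-fold). Zbp1, a sensor of left-handed nucleic acid that can trigger cell death, lay within 2-fold on all 3 arrays (2.11 in ADM, 1.62 in duct and 2.33 in acinar). Ddx58 (RIG-I, the sensor of uncapped viral RNA) has no settled direction. Its brightest probe was at 0.72 in ADM, 2.19 in duct and −0.28 in acinar, and its second probe at −1.27, −2.81 and 0.18, so that duct was highest by 1 probe and lowest by the other.

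The IFIT proteins, which bind viral RNA and halt its translation, and the OAS enzymes, which make the messenger that activates RNase L, gave some of the largest differences. Of these 8 genes 6 were higher in duct than in acinar and 0 lower, beside 27.4% and 24.6% of all genes. Ifit3 was at 3.56 in ADM, 5.79 in duct and 0.83 in acinar, 31.0-fold higher in duct and 6.64-fold higher in ADM than in acinar. Ifit1 was at −0.74, 1.70 and −0.23 in the same order, 3.82-fold higher in duct than in acinar. The ADM array did not share the Ifit1 difference and stood 0.51 log2 units below acinar. Ifit2 was at −0.45 in ADM, −1.47 in duct and −3.38 in acinar (not well above background), so it was highest in ADM, by 2.04-fold over duct and by at least 3.02-fold over acinar. Both Ifit2 differences were below 2-fold under normexp (0.46 and 0.43), and the first also under median scaling (0.87), whereas Ifit3 stayed at 26.5-fold between duct and acinar under normexp.

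Oasl2 and Oas1a repeated the order of Ifit3. Oasl2, a ubiquitin-like member of the OAS family, was at 2.03 in ADM, 4.04 in duct and −0.15 in acinar, 18.2-fold higher in duct than in acinar (11.1-fold under normexp). Oas1a was at 1.64, 3.10 and −0.41, 11.4-fold higher in duct than in acinar, and its second probe differed by 2.61. Under normexp the Oas1a difference was 6.22-fold. For ADM minus duct the probes of Oas1a gave −1.46 and −0.06, and their mean −0.76, short of 2-fold. The remaining OAS genes were less uniform. Oas2 was at −1.63 in ADM, 1.83 in duct and 0.85 in acinar, and ADM was lowest, 5.58-fold below acinar and 3.46 log2 units below duct. Oas3 was close in ADM (−0.73) and duct (−0.94) and not well above background in acinar (−4.18), a difference of at least 1.11 for duct. Oasl1 was 3.04-fold higher in duct (−0.20) than in acinar (−1.81), and ADM (−1.64) was within 2-fold of acinar. The calls for Oas3 and Oasl1 ended under normexp, with duct minus acinar at 0.07 for Oas3 and 0.37 for Oasl1. The ADM deficit of Oas2 remained, at 2.01-fold against acinar and 4.14-fold against duct.

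The other effectors divided into a group that was high in duct and a group that was not. Isg15, the ubiquitin-like modifier, was at 2.46 in ADM, 4.71 in duct and 1.0 in acinar, 13.1-fold higher in duct. Its second probe was at −0.76, −0.04 and −2.70 (not well above background in acinar), in the same order. Ifi44 was at −0.05, 2.24 and −1.66 in the same order, 14.9-fold higher in duct than in acinar. Rtp4, a zinc-finger chaperone of receptors, was at 3.76, 5.42 and 1.61 and 14.0-fold higher in duct. Each of these 3 had ADM between acinar and duct. Under normexp the differences between duct and acinar were 11.4-fold for Isg15, 4.60-fold for Ifi44 and 15.8-fold for Rtp4, and ADM and acinar were within 2-fold for Ifi44 (0.45). Parp14, an ADP-ribosyltransferase, was 7.58-fold higher in duct (3.41) than in acinar (0.48), with ADM at 2.14. Xaf1, a cell-death protein, was at 2.17 in ADM, 1.98 in duct and −0.27 in acinar by its brightest probe. Its second probe was at −1.85 in ADM and not well above background in duct (−5.43) or acinar (−4.03), with ADM at least 2.70-fold above duct. With the mean of both probes the difference of Xaf1 between duct and acinar was 0.43. Usp18, the protease that removes Isg15 and dampens receptor signalling, was at −1.68 in ADM, −0.03 in duct and −2.10 in acinar (not well above background), at least 4.05-fold higher in duct than in acinar. This call for Usp18 ended under normexp, where duct minus acinar was 0.33.

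The membrane and RNA-binding effectors did not follow that pattern. Ifitm3, which blocks viral entry at endosomes and had 10 spots on each array, was at 7.78 ± 0.05 in ADM, 6.54 ± 0.03 in duct and 7.17 ± 0.05 in acinar (SD over 10 spots of 1 array, which covers spotting and scanning only). It was thus highest in ADM, 2.37-fold above duct. Ifitm2 lay within 2-fold on all 3 arrays (4.60, 3.83 and 4.13 in ADM, duct and acinar), and the IFITM genes are close relatives whose probes may share signal. Bst2 (tetherin, which holds budding virus at the membrane) was at 4.24 in ADM, 2.43 in duct and 3.20 in acinar, 3.50-fold higher in ADM than in duct. Ifi35 was at −0.60 in ADM, −1.62 in duct and 0.98 in acinar, 6.05-fold higher in acinar than in duct (2.41-fold under normexp). Eif2ak2 (PKR, the kinase that stops translation when it binds double-stranded RNA) was equal in ADM and duct (1.5 in both) and 2.41-fold higher in acinar (2.78) than in duct, a difference of −0.61 under normexp and −0.88 under median scaling. Trim25, the ubiquitin ligase that acts on RIG-I, was at 5.36, 5.82 and 6.38, highest in acinar, 2.02-fold above ADM, and the difference was −0.52 under normexp and −0.79 under median scaling.

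Rsad2 (viperin, which makes a chain-terminating nucleotide) had the largest excess of ADM over duct among the members. It was at 2.35 in ADM and was near the detection limit elsewhere (−2.48 in duct and −2.24, not well above background, in acinar), so ADM stood 28.3-fold above duct and at least 21.0-fold above acinar. Under normexp these were 5.88-fold and 3.92-fold. Isg20, an exonuclease, was lowest in ADM by both of its probes. Its brightest probe was at 2.01 in ADM, 3.38 in duct and 3.83 in acinar, and its second at −0.72, 2.56 and 3.16. Cmpk2, the nucleotide kinase gene that lies next to Rsad2, gave opposite answers by probe. Its brightest probe was not well above background in ADM (−5.28) and was at 2.53 in duct and 2.16 in acinar. Its second was at 1.44 in ADM and 1.86 in acinar and was not well above background in duct (−4.87). Adar, the RNA-editing enzyme, was at 1.09 in ADM, −2.16 in duct and −1.19 in acinar by its brightest probe. Its second probe was at −1.03, 0.22 and −2.85 (not well above background in acinar), so the direction of Adar between ADM and duct is not settled.

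**Figure D2:**
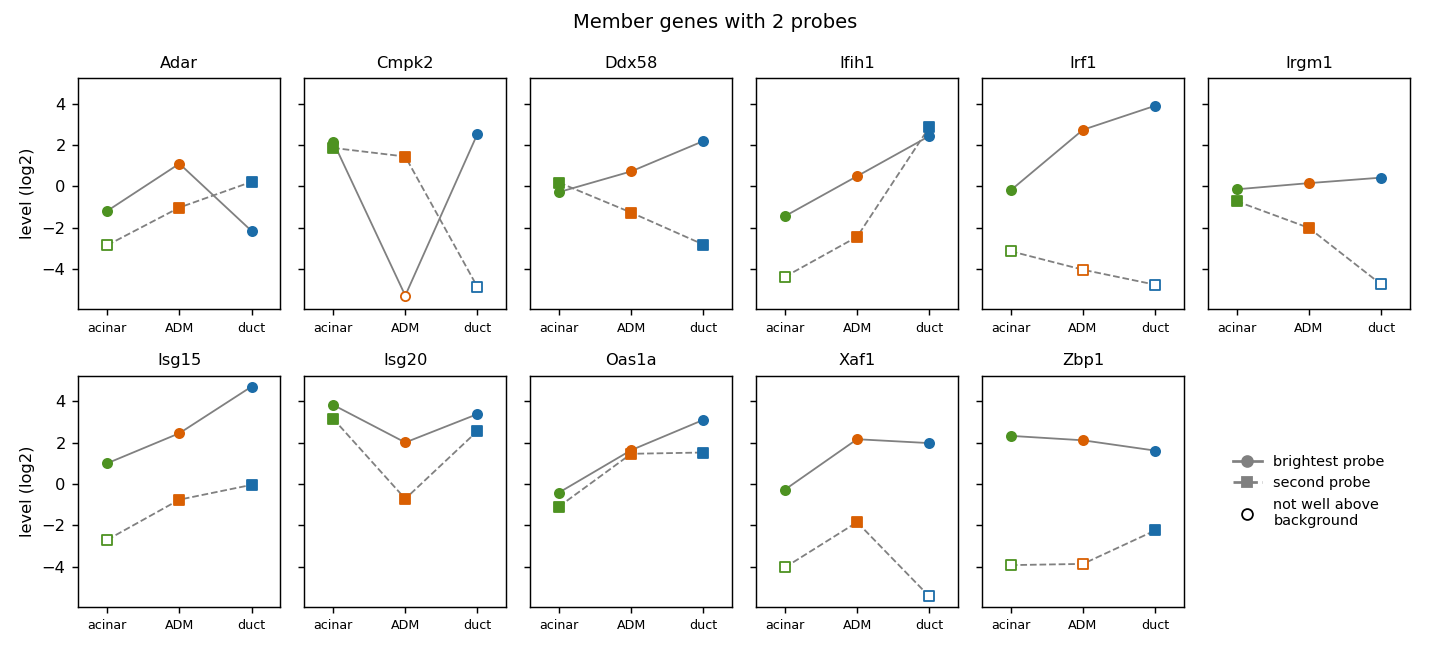
Levels of both probes of the 11 members with 2 matched probes, on the acinar, ADM and duct arrays, in log2 units relative to the 75th percentile of the array (1 array per group, open points not well above background). Both probes of Isg15, Isg20 and Oas1a give the same order of arrays, though by unequal steps, and those of Ddx58, Cmpk2 and Adar cross.

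Probes of the same gene matched only in part, and 27 members rest on 1 probe. Over the 28 combinations of gene and comparison in which both probes could be compared, 15 had the same sign, and 5 (Ddx58 in all 3 comparisons, and Adar and Cmpk2 between ADM and duct) opposed each other by at least 2-fold. Isg15, Isg20 and Oas1a had the same direction by both probes in all 3 comparisons. The second probe of Irf1 was not well above background on any array.

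By their brightest probes, none of the 6 interferon-gamma-type GTPases was 2-fold lower in duct or in ADM than in acinar. The second probe of Irgm1 was lower than in acinar in both, by at least 5.87-fold in duct and by 2.44-fold in ADM. Against acinar cells 3 of the 6 GTPases were higher in duct (median 1.1) and 3 of 6 higher in ADM (median 0.91), by brightest probes. Of all genes, 27.4% were higher and 24.6% lower in duct than in acinar, and 21.8% higher and 22.0% lower in ADM. The 32 type I members had 18 higher and 2 lower in duct (median 1.44), and 18 higher and 7 lower in ADM (median 1.18). Under normexp 20.8% of all genes were higher in duct and 12.5% higher in ADM than in acinar. The type I members then gave 16 higher in duct (median 0.91) and 13 higher in ADM (median 0.62). The GTPases gave 3 higher in duct (median 0.84) and 1 higher in ADM (median 0.49). With 6 genes on 1 side and 1 array per group, these counts do not show that the classes differ. Irgm2, which regulates the loading of other GTPases onto vacuoles, had the largest difference of the class. It was at 2.18 in ADM, 3.12 in duct and −0.87 in acinar, 16.0-fold higher in duct and 8.27-fold higher in ADM than in acinar (6.76-fold and 3.32-fold under normexp). Gbp7 was at 0.42 in ADM, 0.96 in duct and −2.50 in acinar (not well above background), a difference from acinar of at least 8.04-fold for duct and at least 5.54-fold for ADM. Under normexp Gbp7 was 2.39-fold higher in duct and within 2-fold for ADM (0.80).

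Igtp (Irgm3), measured by 10 spots per array, was highest in duct. It was at 0.31 ± 0.12 in ADM, 2.45 ± 0.06 in duct and 0.82 ± 0.12 in acinar (SD over 10 spots of 1 array), 3.11-fold higher in duct than in acinar and 4.41-fold higher in duct than in ADM. The remaining GTPases were within 2-fold between duct and acinar by their brightest probes. Gbp2 was at −0.15 in ADM, −0.25 in duct and −0.78 in acinar, within 2-fold throughout. Gbp3 was at 1.1, 0.38 and −0.08, 2.28-fold higher in ADM than in acinar (0.74 under normexp, short of 2-fold). Irgm1, whose loss sensitises mice to intracellular bacteria, was at 0.15, 0.42 and −0.14, and its second probe ran the other way (−2.01, −4.74 and −0.72, the duct value not well above background). The GBP genes are a close family whose probes may share signal.

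The 3 GTPases with a GAS match in the promoters shown above were the 3 that were higher in duct than in acinar (differences of 1.64 to 4.0). The 3 without one lay between 0.46 and 0.56 by their brightest probes, and the second probe of Irgm1 differed by −2.55 (a bound). This pairing was noticed after the values were seen, it rests on 6 genes, and it was not tested. Among the type I members it did not recur, since 2 of the 6 with a GAS match were higher in duct (median 0.06) against 13 of the 20 without one (median 1.74). An ISRE core did not separate the type I members either, with 6 of 9 higher in duct among those with a core and 9 of 17 among those without.

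**Figure D3:**
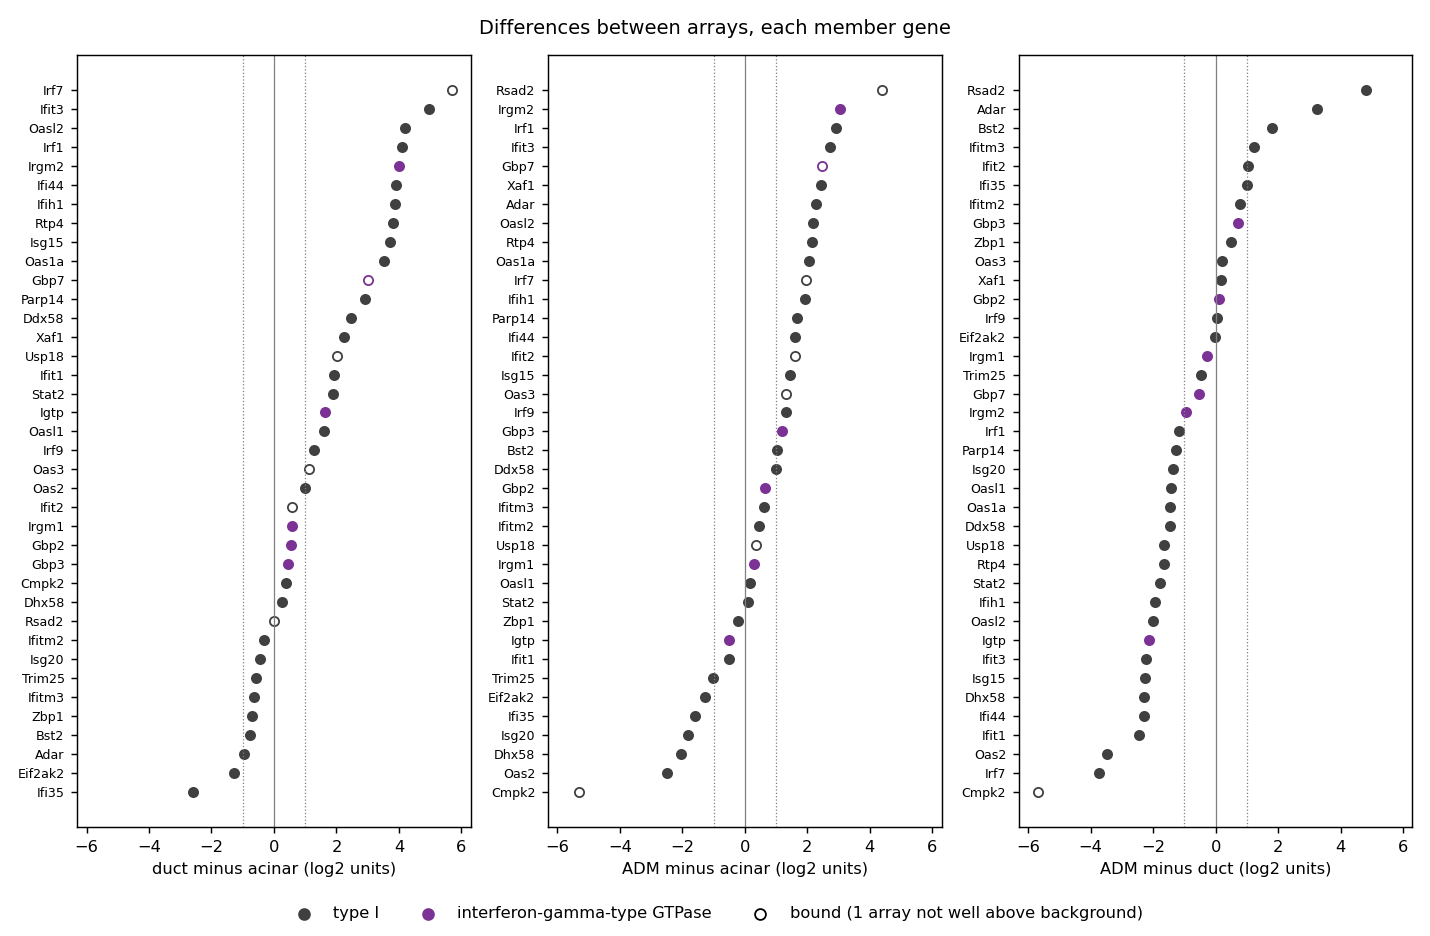
Difference between 2 arrays for each matched member, in log2 units, for duct minus acinar, ADM minus acinar and ADM minus duct, with 1 array per group, open points for bounds and dotted lines at 2-fold. In the panel for duct minus acinar 21 of 38 points lie at or beyond the right dotted line, and in the panel for ADM minus duct 20 lie at or beyond the left one.

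In ADM cells most of the duct-high members lay between acinar and duct, as did most of all duct-high genes on the array. Against acinar cells 21 of 38 members were higher in ADM and 7 were lower, with a median of 1.12, where 21.8% of all 13632 genes were higher in ADM and 22.0% higher in acinar (median 0). The 7 lower in ADM were Cmpk2, Oas2, Dhx58, Isg20, Ifi35, Eif2ak2 and Trim25. Against duct cells 20 of 38 members were lower in ADM and 6 higher, with a median of −1.21, where 24.8% of all 14475 genes were higher in duct and 21.6% higher in ADM (median −0.05). The 6 higher in ADM than in duct were Rsad2, Adar, Bst2, Ifitm3, Ifit2 and Ifi35, and the GTPases contributed only Igtp to the 20. Adar is among the 6, and Ddx58 and Cmpk2 are among the 20, by their brightest probes only. The comparisons share arrays, so they are not independent of each other. Of the 21 members higher in duct than in acinar, 16 had their ADM level between both, 3 (Irf9, Oas3 and Xaf1) were at or above duct, and 2 (Ifit1 and Igtp) were at or below acinar. The 16 include Ddx58, whose probes opposed each other. They also include Stat2 and Oasl1, whose ADM levels were only 0.10 and 0.17 above acinar. Among all 3791 genes higher in duct than in acinar, 61.3% had the ADM level between both.

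**Figure D4:**
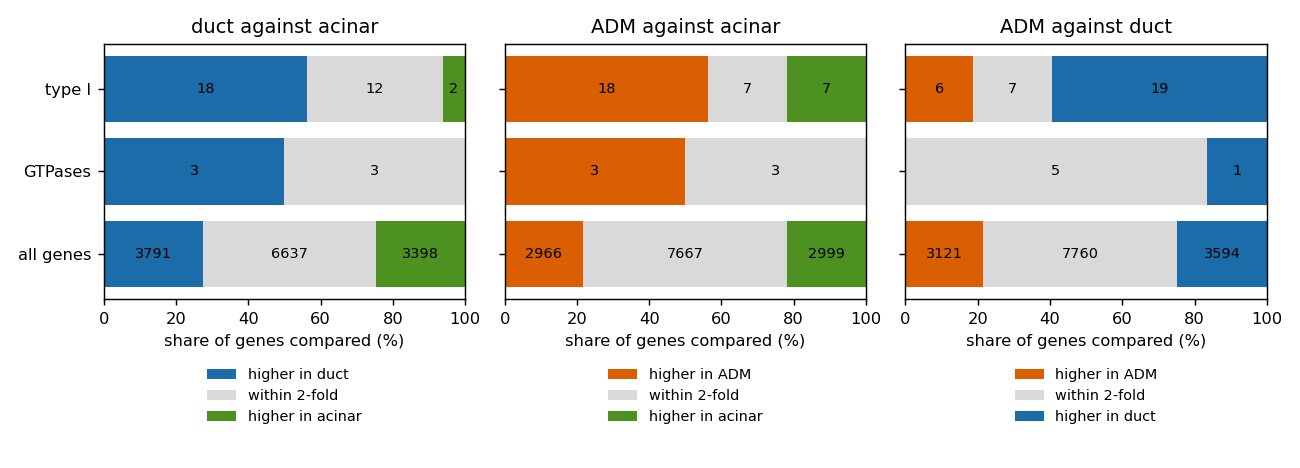
Share of compared genes that were at least 2-fold higher on the first array, within 2-fold or at least 2-fold higher on the second, for the type I members, the interferon-gamma-type GTPases and all genes, with the number of genes printed in each bar (1 array per group). The part higher in duct than in acinar holds 18 of 32 type I members, 3 of 6 GTPases and 3791 of 13826 genes.

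Of 18 interferon ligand genes 15 had a probe. Ifnl3, an interferon-lambda, and Ifna12 were well above background on all 3 arrays and within 2-fold between them. Ifnl3 was at 0.66 in ADM, 0.60 in duct and 1.02 in acinar, and Ifna12 at −0.10, −0.98 and −0.24. Ifng, Ifna2, Ifna4, Ifna5, Ifna11, Ifna13, Ifne and Ifnk were not well above background on any array. No ligand was called at 2-fold between duct and acinar or between ADM and acinar (5 and 7 genes compared). Of these differences, 3 of the 5 and 5 of the 7 were lower bounds. For those ligands a difference of 2-fold or more could not be seen or excluded. Between ADM and duct 3 of 7 ligands were higher in ADM, beside 21.6% of all genes. Among the 3 was Ifnb1 (−1.91 in ADM, −2.93 in duct, and −4.17 in acinar, not well above background), with a difference of 1.02 close to the detection limit. Among the receptors, Ifnar1 was at 2.37 in ADM, 1.95 in duct and −3.70 in acinar (not well above background), at least 4.41 log2 units higher in ADM and at least 3.99 higher in duct than in acinar. Ifngr1 was 2.95 and Ifnlr1, the receptor chain for interferon-lambda that epithelia carry, 3.38 log2 units higher in duct than in acinar. In ADM, Ifnlr1 lay within 2-fold of acinar (0.41). Across receptors and JAK-STAT genes, 7 of 13 were higher and 1 (Tyk2) lower in duct than in acinar, beside 27.4% and 24.6% of all genes.

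Genes upstream of interferon production were mixed. Of 13 sensors and adaptors compared, 5 were higher and 3 lower in duct than in acinar, and the share that was lower is near the 24.6% of all genes. Ticam1, the adaptor of Tlr3 and Tlr4, was at least 3.79 log2 units lower in duct than in acinar, and Ikbke, a kinase that activates interferon factors, was at least 3.24 log2 units higher in ADM than in acinar. Other interferon targets are read against the same 27.4% and 24.6%. Of 38 further type I genes, 20 were higher and 4 lower in duct than in acinar (median 1.1), with the largest difference for Uba7, the enzyme that activates Isg15 for conjugation (5.61). Ifit3b, a close copy of Ifit3, was 3.68 log2 units lower in ADM than in duct. Trim14 had the opposite shape and was at least 5.21 log2 units higher in ADM than in duct. Of 25 further interferon-gamma genes, 11 were higher and 4 lower in duct than in acinar (median 0.80). The peptide transporter gene Tap2 (4.19), the antigen-presentation regulator Nlrc5 (at least 3.75) and the GTPase genes Tgtp1 (at least 3.54) and Gbp4 (at least 3.28) had the largest differences. Gbp4 was also at least 4.38 log2 units lower in ADM than in duct.

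Markers of other cell types ran with the members in some comparisons and not in others. All marker lists are read against the shares of all genes. These were 27.4% higher and 24.6% lower in duct than in acinar, 21.8% higher in ADM than in acinar, and 21.6% higher in ADM than in duct. Macrophage markers were not higher in duct as a list, with 2 of 14 higher and 6 lower than in acinar (median −0.43), while in ADM 12 of 14 were higher than in acinar (median 2.21) and 12 of 14 higher than in duct. Their summed linear level was 485 in ADM, 100.2 in duct and 119 in acinar, in multiples of the 75th-percentile signal, and Cd163 was not well above background on any array. The 4 members at least 2-fold above both other arrays in ADM (Adar by its brightest probe, Bst2, Ifit2 and Rsad2) stand beside these values. Endothelial markers were higher in duct than in acinar in 4 of 5 (median 3.29) and summed to 13.8 in ADM, 20.8 in duct and 14.7 in acinar, with Tek not well above background anywhere. Most of the acinar sum came from Kdr (3.75 in acinar). Fibroblast and stellate markers were higher in duct in 7 of 9 (median 1.69) and in ADM in 8 of 9, with sums of 316, 308 and 78.6. The part of these cells in the results was not tested.

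T and NK cell markers were higher in duct than in acinar in 0 of 6 and lower in 3, with sums of 12.9 in ADM, 7.79 in duct and 12 in acinar, and Ncr1 and Klrb1c were not well above background on any array. Plasmacytoid dendritic cell markers, a list that includes the member Bst2, had 1 of 4 higher in duct and 4 of 5 higher in ADM, each against acinar. The plasmacytoid markers summed to 68.6, 54.3 and 80.1, and most of each sum came from Siglech (5.46 in ADM, 5.49 in duct and 6.11 in acinar). Neutrophil markers summed to 166, 149 and 218 with only Csf3r well above background on the duct and acinar arrays, while S100a8 and S100a9 were so in ADM alone and Cxcr2 and Mpo nowhere. As a check of the labels, 8 of 8 duct markers were higher in duct than in acinar and 9 of 9 acinar markers higher in acinar than in duct. This check covers direction only, since acinar markers kept strong signal on the duct array. Their sums were 7495 in ADM, 1352 in duct and 21124 in acinar, and those of the duct markers 22.4, 99.7 and 12.4. Cftr was not well above background on any array.

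**Figure D5:**
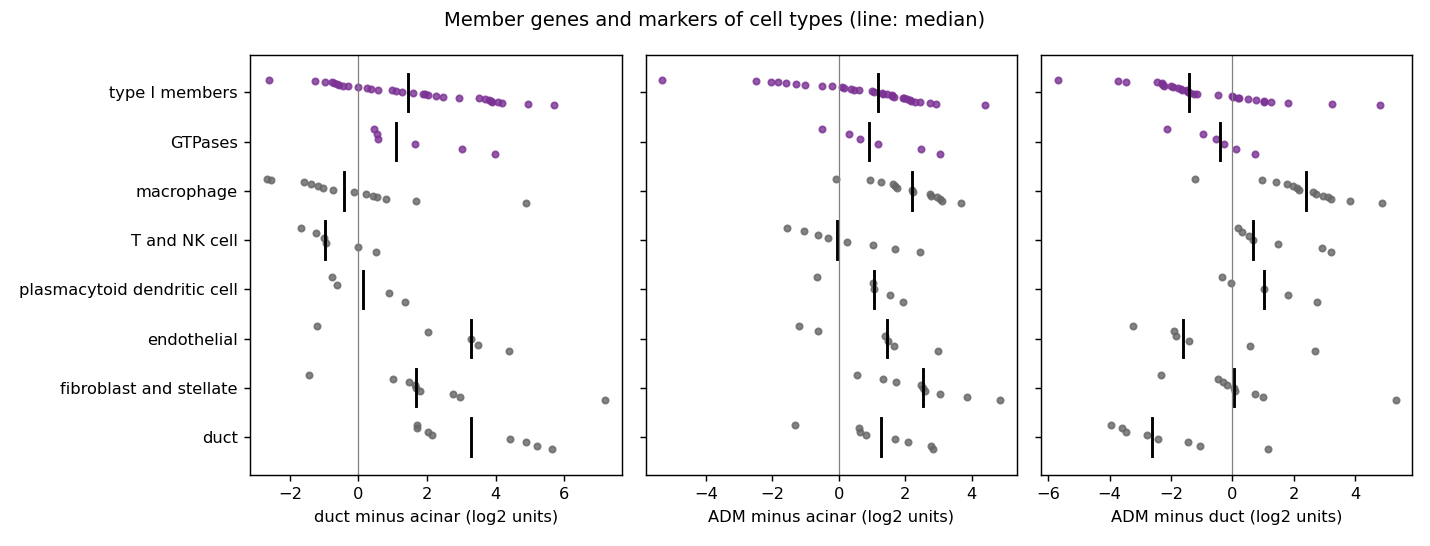
Differences of single genes between 2 arrays, in log2 units, for the type I members, the GTPases and marker lists of 6 cell types, with the median of each list as a black line (1 array per group). Macrophage markers have a median of −0.43 for duct minus acinar and 2.21 for ADM minus acinar, where the type I members have 1.44 and 1.18.

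Signal was weaker on the acinar array, where 22654 of 55664 probes were well above background, against 27676 for ADM and 27849 for duct. Of the 38 members, 38 were well above background in duct, 37 in ADM and 32 in acinar, and 31 on all 3 arrays. No spot was saturated. Of the 77 member differences, 57 kept their direction and were still at least 2-fold under normexp and both other scalings, though many were smaller under normexp. The 57 rest on brightest probes and include differences of Ddx58, Adar and Cmpk2, whose second probes opposed them.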

How the data were processed

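Each array was hybridised with amplified, Cy3-labelled cDNA from 1 cell type. The deposited scanner tables hold spot intensities that Agilent Feature Extraction 11.5.1.1 had background-subtracted and detrended within each array, per the file headers, with flags for spots well above background. The value table deposited with the series holds log2 values, and each of its columns equalled the log2 processed signal minus 1 constant per array, to within 0.001 for its 32905 shared probes. Its column medians were −0.56 in ADM, −0.63 in duct and −0.57 in acinar, and genes were not centred.

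From the intensities, control spots and outlier spots were left out, repeated spots were averaged, and log2 signal was taken minus the 75th percentile of the array (Python 3.11.15, pandas 2.3.3, numpy 2.4.6). Accessions were matched to symbols through a RefSeq table, which named 28020 probes and left 27644 unnamed. A gene is represented by its brightest probe over the 3 arrays. Where 1 side was not well above background, the bound sets the brighter level against the dim probe or the array's detection floor (its dimmest well-above-background probe), whichever was higher. All members with signal are named with their levels, opposing second probes are given, and up to 4 genes of each other pathway list with the largest differences were eligible to be named. The members and lists were chosen with earlier results of these data known. With 1 array per group no p-value was computed. The calculation was tested on simulated data. Some genes of the lists are not reported here. The 8 alternatives included normexp background correction with an offset of 50 (limma 3.58.1 in R 4.3.3), other scalings, filters and probe choices.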

Additional observations from a re-analysis of the deposited data

How the results depend on the processing

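No paired analysis was possible because each group had 1 array. Under normexp background correction, the type I members higher in acinar numbered 1 against duct (2 in the reported setting) and 3 against ADM (7), and the GTPases numbered 1 higher in ADM than in acinar (3) and 2 higher in duct than in ADM (1). The type I medians were 0.91 for duct minus acinar and 0.62 for ADM minus acinar under normexp (1.44 and 1.18). Over all genes normexp gave 20.8% higher in duct and 10.9% higher in acinar. With median scaling, 1 type I member was higher in acinar than in duct and 2 GTPases were higher in duct than in ADM. With the mean of all probes, 1 GTPase (Irgm1) was higher in acinar than in duct and 1 higher in ADM than in duct, and Ddx58 turned to −0.26 for duct minus acinar, −0.225 for ADM minus acinar and 0.0397 for ADM minus duct. The second-brightest probe exists only for genes with 2 probes. By it, 4 of 8 type I members were higher and 2 lower in duct than in acinar, beside 24.5% and 29.5% of all genes. In ADM 3 of 8 were higher and 2 lower than in acinar, beside 22.9% and 24.6% of all genes. Between ADM and duct 3 of 9 were higher each way, beside 29.1% of all genes higher in ADM and 24.2% higher in duct. The 1 GTPase left, Irgm1, gave 0 higher in duct and 1 higher in acinar (−2.55), 0 higher in ADM and 1 higher in acinar, and 1 higher in ADM and 0 higher in duct. By that probe Ddx58 was at −3.0, −1.45 and 1.55 in those comparisons, and for ADM minus duct Adar was at −1.24 and Cmpk2 at least 4.72. The cause of these differences between probes was not tested. Of the 77 member differences of at least 2-fold, 57 stayed at 2-fold or more under normexp, 73 under median scaling, 76 under the percentile of detected probes, 76 in the deposited value table, 70 with the mean of probes and 9 of 19 with the second probe.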
